A study of Arabidopsis thaliana and Nicotiana tabacum with 16 samples.

Results

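Ribosome profiling libraries of Arabidopsis seedlings from which rRNA fragments had been removed with biotinylated DNA oligos were compared with undepleted libraries, gene by gene, to ask which coding sequences (CDS) carried more or fewer ribosome-protected fragments (RPFs) in both depleted libraries. The comparison used 5 of the 16 libraries of the series: the depleted libraries V1 and V2, made with oligo cocktails of 24 and 29 oligos, and the undepleted libraries digested with 400, 550 and 700 U of RNase I. A repeat library of the 700 U digestion was left out. All 5 were labelled as wild-type Col-0 seedlings of 14 days, grown in 12 h light and 12 h dark on Murashige and Skoog medium at the same temperature, and lysed in a buffer with chloramphenicol and cycloheximide. The groups differed in more than the oligos. V1 and V2 had been digested with 600 U and size-selected from 20 to 35 nt, whereas the undepleted RPFs spanned 20 to 50 nt, so that depletion, fragment size and dose cannot be told apart. The labels do not say whether the libraries of a group came from separate plants, and p-values measure only the spread between these libraries, which may be technical.

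A ribosome-protected fragment is the stretch of mRNA that a ribosome shields from nuclease, so counts over a CDS follow how many ribosomes were on that mRNA, through the amount of the mRNA and its translation together. Nuclease also cuts the ribosome's own RNA, and the resulting rRNA fragments crowd such libraries unless they are captured by complementary oligos. In green seedlings, ribosomes of the cytosol, the chloroplasts and the mitochondria all contribute, and levels of many of their mRNAs change with age, daylength, time of day and sugar supply.

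V1 stood apart from its label before any gene was tested. On a common scale over 8680 genes with at least 50 counts on average, the median absolute log2 difference of V1 was 0.44 to the mean of the 14-day undepleted libraries but 0.13 to the mean of the 3 undepleted RNase I libraries from 8-day seedlings. Those younger seedlings had been grown with sucrose in 16 h light and 8 h dark. V2 lay 0.48 from the 14-day and 0.35 from the 8-day libraries. The depleted libraries made without and with ligation of adapters, also labelled as 14-day, lay 0.349 and 0.353 from the 14-day libraries. From the 8-day libraries they lay 0.319 and 0.337. All these depleted libraries were thus nearer the 8-day set, V1 by the widest margin. The 14-day undepleted libraries themselves lay 0.089 to 0.107 from their own mean and 0.44 to 0.45 from the 8-day mean. Whether V1 came from other seedlings than its label says was not tested, and 8-day levels are given beside the main groups below, with counts for single depleted libraries at the end. Depth was 7058885 counts over CDS in V1, 5188245 in V2 and 2338819 to 3273178 in the undepleted libraries, since rRNA took 25.9% and 30.7% of trimmed reads in V1 and V2 against 87.6% to 88.4% without depletion.

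The gene with the widest change was AT2G01021, a short open reading frame inside the rRNA gene cluster at the start of chromosome 2. Its CDS without the stop codon lies at chr2:6571-6669 on the plus strand of TAIR10, 626 bases past an annotated gene of the same cluster (AT2G01020) whose product is a small ribosomal RNA. The sequences below are shown because the oligo and the CDS share a run that covers the whole oligo. Capitals mark the 42 bases of the CDS, from its position 56, that are complementary to oligo Nu_25S_4.
Nu_25S_4: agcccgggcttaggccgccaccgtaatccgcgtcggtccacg
AT2G01021: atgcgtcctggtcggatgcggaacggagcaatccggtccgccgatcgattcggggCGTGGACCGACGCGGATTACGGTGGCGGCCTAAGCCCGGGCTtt
A fragment of 25S rRNA that escaped the authors' removal of rRNA reads and mapped to the genome at this place would be counted as this gene. Whether such fragments made up its counts was not tested. The RPF level of AT2G01021 was 1206, 1542 and 1146 CPM (counts per 1e6 counts over CDS, normalized by TMM) in the 400, 550 and 700 U libraries, against 3.18 in V1 and 2.32 in V2. The depleted values lay below all undepleted values by a log2 fold change of -8.83 ± 0.30 (SE; edgeR quasi-likelihood test, adjusted p = 9.3e-06). AT2G01021 was at 182, 602 and 1037 CPM in the 8-day undepleted libraries (63, 125 and 250 U), so it was lower in V1 and V2 than in either undepleted set. In the other 2 depleted libraries labelled as 14-day, made without and with ligation of adapters, it was at 0.923 and 4.105 CPM. All 4 depleted libraries thus lay below these 6 undepleted ones. The 4 were also size-selected from 20 to 35 nt and the 6 from 20 to 50 nt, so that oligos and fragment size cannot be told apart for this gene.

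The next longest match was a run of 19 bases between Nu_25S_1 and the CDS of the glutathione transferases GSTT3 (AT5G41220) and GSTT2 (AT5G41240), neighbours on the minus strand of chromosome 5 with the same bases around the run. Capitals mark the shared run in the target strand of the oligo and in each CDS, to show how much shorter it is than the match above.
Nu_25S_1 target strand: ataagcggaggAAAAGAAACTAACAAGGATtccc
AT5G41220: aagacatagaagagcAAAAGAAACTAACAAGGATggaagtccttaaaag
AT5G41240: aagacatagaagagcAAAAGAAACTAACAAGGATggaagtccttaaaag
GSTT3 was at 8.58 and 10.4 CPM in V1 and V2 and at 14.7, 10.1 and 12.8 CPM without depletion, and the groups overlapped (log2 fold change -0.41 ± 0.27, adjusted p = 0.30, edgeR). GSTT2 was at 7.33 and 7.66 CPM against 8.29, 8.09 and 9.53 CPM (-0.21 ± 0.27, adjusted p = 0.61, edgeR). A sense run of at least 18 bases with any oligo occurred in these 3 genes only, and 1 of the 3 was called lower. At 15 bases or more there were 12 genes, of which 11 were tested. Of those, 2 were called lower and 4 called higher, beside 11.7% lower and 10.9% higher over all genes tested. The 2 lower were AT2G01021 and AT2G35260, the latter with a run of 15 bases (-0.95 ± 0.27, adjusted p = 0.038, edgeR). The 4 higher were AT1G58380, AT1G58684, AT1G58983 and AT1G59359, near-identical copies of the cytosolic ribosomal protein RPS2 that share reads, with log2 fold changes of 0.83 to 0.90.

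Across the CDS table, 15532 of 27628 genes had at least 10 counts in at least 2 libraries and were tested. In V1 and V2, 1691 genes were called higher the same way, that is at an adjusted p under 0.05 with both depleted libraries above all 3 undepleted libraries, and 1813 were called lower the same way. These are 10.9% and 11.7% of the genes tested, and the called total in either direction was 22.6%. The counts of called genes in each group below are to be read beside these shares. The median log2 fold change over all tested genes was 0.03. With each library scaled to its total alone, that median was -0.14 and 930 genes were called higher and 2094 lower, so the share of higher calls moved from 48.3% to 30.8%. Both depleted libraries lay above the undepleted range, called or not, for 26.8% of tested genes and below it for 26.3%. For 9.64% V1 lay on one side of that range and V2 on the other. Counts depended on every undepleted library: without 400, 550 or 700 U, 481, 504 and 451 genes were called higher and 732, 741 and 669 lower. Calls that held in all 3 of these smaller fits numbered 355 higher and 596 lower.

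**Figure D1:**
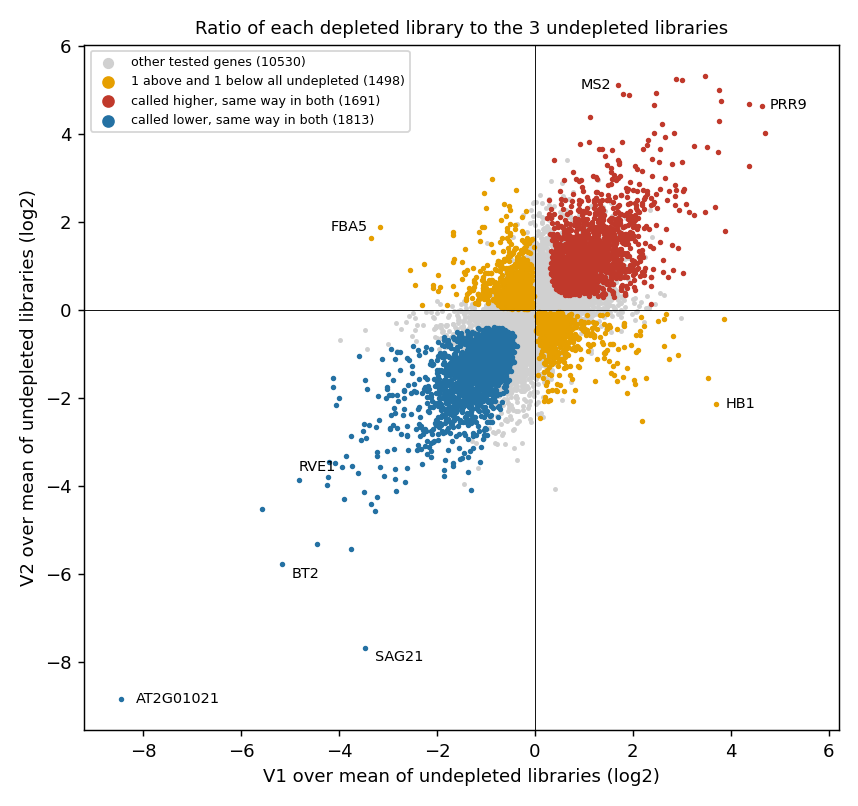
Each point is 1 of 15532 tested genes, placed by the log2 ratio of its CPM in V1 (horizontal) and V2 (vertical) to the mean log2 CPM of the 3 undepleted libraries, with 0.5 added to each CPM. The 2 ratios share the undepleted libraries. Red and blue points are the 1691 and 1813 genes called the same way in both, orange points the 1498 genes that V1 and V2 place on opposite sides of the undepleted range, and AT2G01021 lies farthest from the origin.

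Beside the 8-day undepleted libraries most of these differences were small in V1. For the 1691 higher genes, the median absolute log2 difference of V1 was 0.96 to the 14-day and 0.13 to the 8-day libraries. For V2 it was 1.09 and 0.36. For the 1813 lower genes V1 lay 1.08 and 0.17 away, and V2 1.23 and 0.40. Of the genes called the same way, 8 also lay at least 2-fold past the 8-day mean in both V1 and V2: 2 higher and 6 lower. Over all 15532 tested genes, called or not, 34 lay as far above and 10 as far below the 8-day mean in both. BGLU24 (AT5G28510), a beta-glucosidase singled out here after its values were seen, was 1 of the 2 higher. On the common scale it was at 37.4 and 42.2 CPM in V1 and V2, at 14.2, 18.9 and 9.11 CPM in the 14-day and at 3.64, 7.21 and 8.53 CPM in the 8-day undepleted libraries. Its log2 fold change against the 14-day libraries was 1.54 ± 0.27 (adjusted p = 0.0066, edgeR). In the ligation-free and ligation-based depleted libraries BGLU24 was at 12.2 and 7.39 CPM, within and below the 14-day undepleted range, so its rise was not shared by all depleted libraries. AT2G01021 was the only 1 of the 6 lower genes with over 50 counts on average. These counts are a description, since the genes were chosen with V1 and V2.

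Genes of the circadian clock were called in both directions. The clock runs as a loop in which CCA1 and LHY, MYB factors of the morning, repress evening genes. The pseudo-response regulators PRR9, PRR7 and TOC1 in turn repress CCA1 and LHY. Of 15 clock genes tested, 4 were higher (PRR9, PRR7, GI and GRP8) and 6 lower, with a list median of -0.84. PRR9, PRR7 and GI had 3 counts or fewer in every undepleted library and passed the filter only through V1 and V2, where they were high. With at least 10 counts required in all 5 libraries, 1 clock gene was higher and 5 were lower of 9. PRR9 (AT2G46790) was at 0.754, 1.21 and 0.595 CPM in the 400, 550 and 700 U libraries and at 32.7 CPM in V1 and also in V2 (log2 fold change 5.25 ± 0.31, adjusted p = 0.00011, edgeR). Both depleted libraries were thus far above the undepleted range and equal to each other. PRR7 (AT5G02810) was at 3.04 CPM in V1 and 30.4 in V2 against 1.13, 0.809 and 0 CPM, so that its rise was mainly in V2. GI (AT1G22770), an evening gene that acts in daylength sensing, had 45 and 103 counts in V1 and V2 and 1 count in the 3 undepleted libraries together. Its pooled ratio per unit depth was 109 (95% counting interval 19.2 to 4325, exact binomial).

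Morning-phased MYB genes went the other way. RVE1 (AT5G17300), which links the clock to auxin, was at 348, 358 and 334 CPM without depletion and at 22.3 and 29.0 CPM in V1 and V2 (-3.76 ± 0.19, adjusted p = 6.9e-05, edgeR). CCA1 (AT2G46830) fell less, from 290.3, 289.5 and 259.9 CPM to 172 and 140.2 CPM (-0.84 ± 0.16, adjusted p = 0.0095). LHY (AT1G01060), TOC1 (AT5G61380) and ELF3 (AT2G25930), the last a subunit of the evening complex, were lower by log2 fold changes of -1.18 ± 0.31, -1.47 ± 0.31 and -2.18 ± 0.45. Outside the list, RVE2 (AT5G37260, a relative of RVE1), COL9 (AT3G07650, a zinc-finger protein of the CONSTANS family) and the cold- and clock-regulated COR27 (AT5G42900) fell by 3.84, 4.04 and 5.01 on the log2 scale. COR27 was at 9.05, 6.47 and 12.2 CPM without depletion and at 0.277 and 0.232 CPM with it. Its counts of 2 and 1 in V1 and V2 let it pass the filter only through the undepleted libraries. In the 8-day undepleted libraries PRR9 was at 28.1 ± 1.82 CPM and RVE1 at 28.1 ± 7.84 CPM (SD, n = 3, common scale), near V1 and V2. The time of harvest is not given in the sources used here. Without 400, 550 or 700 U, 5, 6 and 6 of the 10 calls remained. PRR9, RVE1, RVE2, COL9 and COR27 were called in each of these fits, whereas PRR7 and LHY were called in none.

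Genes that rise when sugar runs short were the most uniformly lower group. These genes are switched on under the kinase SnRK1, the plant relative of yeast SNF1, and support the breakdown of storage compounds and amino acids. Of 16 sugar-starvation genes tested, 12 were lower and 0 higher (list median -2.17), and 10 to 11 stayed lower with any 1 undepleted library left out. BT2 (AT3G48360), a BTB-domain scaffold protein, was at 346, 337 and 349 CPM without depletion and at 9.13 and 5.80 CPM in V1 and V2 (-5.49 ± 0.24, adjusted p = 4.5e-05, edgeR). AT3G15450, an aluminum-induced family protein, was at 659, 681 and 661 CPM against 35.4 and 47.6 CPM. The undepleted libraries agreed within a few percent for both genes, and V1 and V2 lay far below them. ASN1 (AT3G47340), the dark-inducible asparagine synthetase, fell from 290.3, 289.5 and 330.1 CPM to 29.2 and 13.9 CPM, and DRM2 (AT2G33830) and AKINBETA1 (AT5G21170, a SnRK1 subunit) fell by 4.21 and 3.06 on the log2 scale. DIN10 (AT5G20250), a raffinose-family galactosidase, was at 225 CPM in V1 and 47.8 in V2 against 380.0 to 412 CPM and was not called (adjusted p = 0.064).

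Breakdown of branched-chain amino acids, a mitochondrial route that feeds respiration when sugar is short, was lower in 7 and higher in 1 of 16 genes tested (list median -0.80). MCCA (AT1G03090), a subunit of methylcrotonyl-CoA carboxylase, was at 40.1 CPM in V1 and 13.2 in V2 against 103, 105 and 103 CPM. IVD (AT3G45300, isovaleryl-CoA dehydrogenase), BCAT2 (AT1G10070, a branched-chain aminotransferase) and THA1 (AT1G08630, threonine aldolase) fell by 1.68, 2.27 and 2.01 on the log2 scale. Only 3, 5 and 4 of the 7 lower calls remained without 400, 550 or 700 U, with IVD, BCAT2 and THA1 among those called each time. Among sugar carriers and starch enzymes, the hexose transporter STP1 (AT1G11260) was at 624, 645 and 819 CPM without depletion and at 113 and 94.5 CPM with it (-2.75 ± 0.20, adjusted p = 0.00024, edgeR). The phloem-loading exporter SWEET12 (AT5G23660) was at 31.6 and 13.003 CPM in V1 and V2 against 71.6 to 94.95 CPM, and BAM3 (AT4G17090), the main plastid beta-amylase of leaf starch breakdown, at 507 and 632 against 1323 to 1342 CPM. APL3 (AT4G39210), a large subunit of the starch-synthesis enzyme ADP-glucose pyrophosphorylase, was higher, at 5.81 CPM in V1 and 40.9 in V2 against 1.88 to 2.83 CPM. It had 5, 7 and 9 undepleted counts and passed the filter only through V1 and V2, where it was high. The maltose exporter MEX1 was called higher as well (log2 fold change 0.80, adjusted p = 0.046). The starch and sugar list as a whole had 5 genes higher and 5 lower of 20, of which 1 and 3 to 4 remained without any 1 undepleted library. With at least 10 counts in all 5 libraries, 4 were higher and 5 lower of 19.

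Other large decreases were of mixed function. PP2-A13 (AT3G61060), a phloem lectin family member, was at 105, 99.5 and 101 CPM without depletion and at 1.66 and 3.95 CPM in V1 and V2. AT2G15960, annotated as a stress-induced protein, was at 67.1, 68.3 and 39.9 CPM against 1.52 and 3.48 CPM, and ACR9 (AT2G39570), an ACT-domain protein, at 372, 394 and 384 CPM against 20.3 and 34.8 CPM. All 3 were called in every fit without 1 undepleted library. SAG21 (AT4G02380), a mitochondrial late-embryogenesis protein, was the most unequal: 1948, 1896 and 2016 CPM without depletion, 176 in V1 and 9.06 in V2. It was called with all libraries (-4.39 ± 0.96, adjusted p = 0.015, edgeR) and lost with any undepleted library left out. In the 8-day undepleted libraries BT2 was at 7.19 ± 2.96, STP1 at 118 ± 12.9 and SAG21 at 184 ± 8.23 CPM (SD, n = 3, common scale), each closer to V1 than to the 14-day undepleted libraries. Sucrose is named for the medium of the 8-day seedlings only.

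**Figure D2:**
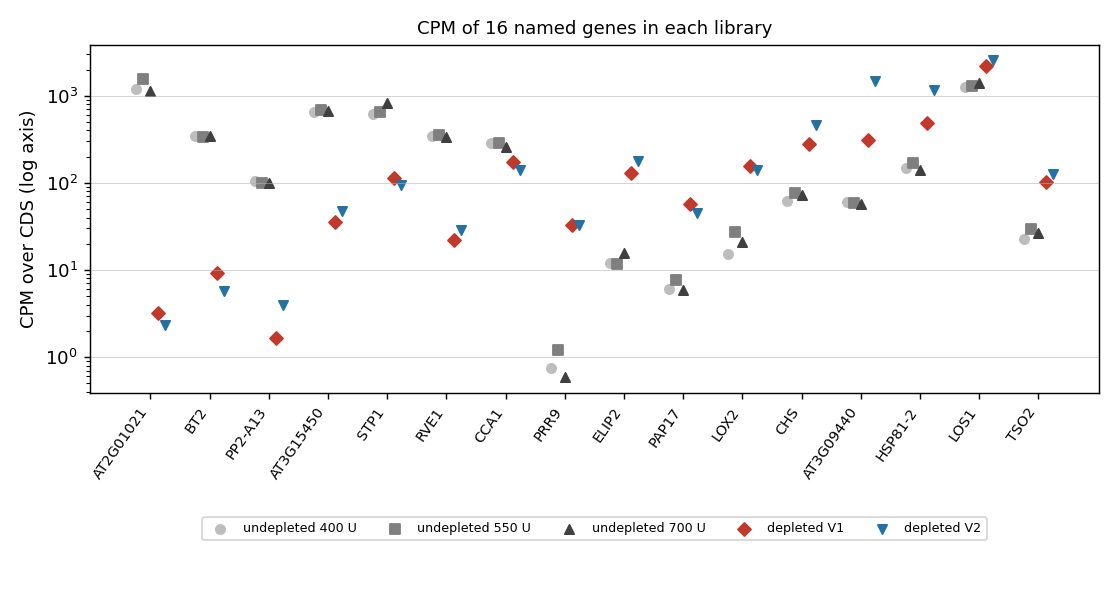
CPM over CDS (log axis) of 16 named genes in the 3 undepleted libraries (grey) and in V1 (red) and V2 (blue), 1 point per library. For all 16, both depleted points lie outside the undepleted points on the same side. The gap is narrow for CCA1 and LOS1 and widest for AT2G01021, at 1146 to 1542 CPM without and 2.32 to 3.18 CPM with depletion.

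Flavonoid synthesis, which turns phenylalanine into flavonols and the red anthocyanins, was higher in 13 of 15 genes tested and lower in 0 (list median 2.51). Of the 13, 6 were scarce without depletion and entered the test only through V1 and V2, and with at least 10 counts in all 5 libraries 8 of 9 were higher. Under that filter 8 of 8 cytosolic heat-shock, 6 of 7 phosphate, 2 of 6 jasmonate and 4 of 4 sulfur genes were higher, and 12 of 15 sugar-starvation genes lower. CHS (AT5G13930), chalcone synthase at the entry of the pathway, was at 283 and 466 CPM in V1 and V2 against 62.6, 75.6 and 73.5 CPM (2.41 ± 0.22, adjusted p = 0.00056, edgeR). PAL1 (AT2G37040), which makes cinnamate, was at 245 and 649.7 CPM against 111 to 118 CPM, and C4H (AT2G30490), the next step, at 266 and 586 against 188 to 211 CPM. The late genes DFR (AT5G42800) and LDOX (AT4G22880), needed for anthocyanins, were scarce without depletion, at 0.809 to 1.51 CPM, and reached 8.44 and 15.3, and 7.61 and 16.9 CPM. Levels in V2 exceeded those in V1 for each of these 5 genes. MYB75 (AT1G56650), the MYB factor that turns on the late genes, had 26 and 23 counts in V1 and V2 and 1 in the undepleted libraries together, a pooled ratio of 36.0 (95% counting interval 6.17 to 1451). Without 400, 550 or 700 U, 11, 11 and 9 of the 13 calls remained, and C4H was lost in each. In the 8-day undepleted libraries CHS was at 329 ± 13.4 and DFR at 10.2 ± 2.91 CPM (SD, n = 3, common scale), and the list lay -0.03 (V1) and 0.51 (V2) from them in the median.

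Genes of phosphate shortage were higher in 7 of 8 tested (list median 1.43). PAP17 (AT3G17790), an acid phosphatase, was at 56.9 and 45.04 CPM in V1 and V2 against 6.03, 7.68 and 5.95 CPM, and SPX1 (AT5G20150), a phosphate sensor, at 32.7 and 20.4 against 2.98 to 4.52 CPM. PS2 (AT1G73010), a pyrophosphatase, had 90 and 33 counts in the depleted libraries and 0 in all 3 undepleted ones, at least 30.1-fold higher against a floor of 3 counts over the undepleted group. The phosphate transporter PHT1;1 (AT5G43350) was at 29.1 CPM in V1 but 9.29 in V2 against 4.85 to 8.04 CPM, and its call was lost without V1. Of the 7 calls, 3 remained in each fit without 1 undepleted library and 4 with scaling to the library total. In sulfur assimilation, APR1 (AT4G04610) and APR3 (AT4G21990), reductases of activated sulfate, were higher and rose most in V2. APR1 was at 57.0 and 241 CPM against 17.0 to 25.6 CPM, and APR3 at 63.5 and 210.1 against 33.9 to 41.4 CPM. These were 2 of the 5 genes tested, and 1, 1 and 0 were called without 400, 550 or 700 U. PAP17 was at 57.2 ± 2.85 and APR1 at 60.4 ± 3.45 CPM in the 8-day undepleted libraries (SD, n = 3, common scale), near V1.

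Jasmonate synthesis was represented by 3 higher genes of 9 tested. LOX2 (AT3G45140), the plastid lipoxygenase, was at 157 and 140.2 CPM against 15.5, 27.1 and 21.1 CPM (2.81 ± 0.22, adjusted p = 0.00035, edgeR). AOC2 (AT3G25770) and AOS (AT5G42650), the following cyclase and synthase, had log2 fold changes of 3.41 ± 0.56 and 1.59 ± 0.33. AOC2 had 2, 4 and 13 undepleted counts and passed the filter only with V1 and V2, where it was high. The AOS call was lost without any 1 undepleted library. Of 19 genes of glucosinolate synthesis, 8 were higher and 1 lower (median 0.78), and 0, 0 and 1 of the higher calls remained without 400, 550 or 700 U. Among the members, CYP79F1 (AT1G16410) and CYP83A1 (AT4G13770), of the methionine-derived branch, were at 60.3 and 239.9 CPM and at 135 and 362 CPM against 39.2 to 43.3 and 93.8 to 95.7 CPM. CYP79B3 (AT2G22330), of the tryptophan-derived branch, was at 45.5 and 21.6 CPM against 127, 122 and 133 CPM. Directions did not follow the branch, since CYP79B2 of the tryptophan branch was called higher (log2 fold change 0.78, adjusted p = 0.014, edgeR), and MAM1 of the methionine branch was not called (-0.02). Beside the 8-day undepleted libraries, the list medians were 0.10 in V1 and 0.82 in V2 for glucosinolates and -0.14 and 0.73 for jasmonate. ER bodies, the beta-glucosidase stores of seedlings and roots, were higher in 5 of 6 genes (median 1.02). PYK10 (AT3G09260), their main enzyme, was at 1756 and 1408 CPM against 831, 856 and 778 CPM, and BGLU18 (AT1G52400) at 165 and 163 against 68.8 to 81.7 CPM. Of the 5 calls 1, 2 and 2 remained without 400, 550 or 700 U, BGLU18 in each, and 2 with scaling to the library total. PYK10 was at 1696 ± 30.8 and LOX2 at 145 ± 6.17 CPM in the 8-day undepleted libraries (SD, n = 3, common scale), near V1 again.

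Heat-shock proteins were higher in every cytosolic and endoplasmic member tested, 11 of 11 (list median 2.44). These chaperones fold new or damaged proteins. The HSP70 gene AT3G09440 was at 315 CPM in V1 and 1486 in V2 against 59.9, 58.2 and 56.6 CPM (3.95 ± 0.53, adjusted p = 0.0022, edgeR). HSP81-2 (AT5G56030) and HSP81-3 (AT5G56010), cytosolic HSP90s, were at 483 and 1179 CPM and at 349 and 1149 CPM against 139 to 169 and 100.3 to 111 CPM. V2 was the higher library each time. These near-identical genes share reads, and their separate values are uncertain. HSP70-1 (AT5G02500), the most abundant HSP70, differed less, at 1786 and 3104 CPM against 1144 to 1247 CPM, and HSP101 (AT1G74310), the disaggregase, was at 7.06 and 8.59 CPM against 0.809 to 1.79 CPM. Without 400, 550 or 700 U, 9, 10 and 10 remained called. HSP101 and ROF2 (AT5G48570) had 6 counts or fewer in every undepleted library and passed the filter only through V1 and V2. With at least 10 counts in all 5 libraries, 8 of 8 members were higher. The list holds 15 members, and those not tested had too few counts.

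Chaperones of the organelles followed with smaller changes, 7 of 8 higher (list median 1.37). CPN60A (AT2G28000), the chaperonin that assembles Rubisco, was at 1024 and 1146 CPM against 453, 451 and 465 CPM, and mitochondrial HSP60 (AT3G23990) at 146 and 193 against 50.6 to 54.998 CPM. The plastid HSP90.5 (AT2G04030) had a log2 fold change of 1.64 ± 0.18. These 3 were called in each fit without 1 undepleted library, but only 4, 5 and 3 of the list were. CPN60B (AT1G55490), the partner of CPN60A, was at 1049.6 CPM in V1 and 743 in V2 against 689 to 726 CPM and was not called (adjusted p = 0.18, edgeR). V1 and the 8-day undepleted libraries were close here as well, with AT3G09440 at 365 ± 10.5 CPM and CPN60A at 963 ± 19.0 CPM in the latter (SD, n = 3, common scale).

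Part of the translation and cell division genes were called higher, most by small changes. Cytosolic ribosomal proteins were higher in 14 and lower in 0 of 30 genes (list median 0.45), and translation factors in 7 of 14 (0.32). RPL3A (AT1G43170), a large-subunit protein, was at 764 and 863 CPM in V1 and V2 against 436, 426 and 432 CPM, and RACK1A (AT1G18080), a scaffold on the small subunit, at 688 and 615 against 342 to 349 CPM. LOS1 (AT1G56070), elongation factor 2, was at 2194 and 2549 CPM against 1250.0 to 1418 CPM, and the elongation factor 1-alpha gene AT5G60390, which shares reads with its copies, at 2056 and 1753 against 1112 to 1151 CPM. The counts were fragile. Of the 14 ribosomal protein calls, 1, 2 and 1 remained without 400, 550 or 700 U and 3 with scaling to the library total. RPL3A and RACK1A were called in each fit without 1 undepleted library, and RPL24B (AT3G53020) in none. Of the 7 translation factors, 1, 1 and 2 remained without these libraries and 4 with scaling to the library total. Ribosomal proteins lay -0.08 (V1) and -0.18 (V2) from the 8-day undepleted libraries in the median, and histones -0.14 and -0.31.

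Histones made during DNA replication, H3.1 and H4, were higher in 9 of 13 genes (list median 0.97). The H3.1 gene AT5G65360 was at 69.1 and 64.3 CPM against 20.0, 22.2 and 22.6 CPM, and AT1G09200, another H3.1 gene, at 76.7 and 62.0 against 19.2 to 29.5 CPM. Reads of near-identical histone copies cannot be assigned to 1 gene. The calls numbered 4, 5 and 7 without 400, 550 or 700 U, and both these genes were called each time. TSO2 (AT3G27060), a ribonucleotide reductase subunit, was at 102 and 127 CPM against 22.6, 29.5 and 26.8 CPM (2.12 ± 0.19, adjusted p = 0.00048, edgeR). The replication clamps PCNA1 (AT1G07370) and PCNA2 (AT2G29570) had log2 fold changes of 1.96 ± 0.34 and 1.62 ± 0.22. Of the 6 dividing-cell markers tested, 3 were called higher and the other 3 were not called. The 6 markers of dividing cells together summed to 200.5 and 174 CPM (of the library total) in V1 and V2, 56.3 to 70.1 in the undepleted 14-day libraries and 160.2 to 178 in the 8-day ones. Whether the share of dividing cells differed was not tested, and more such cells and more RPFs per cell cannot be told apart in whole seedlings.

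**Figure D3:**
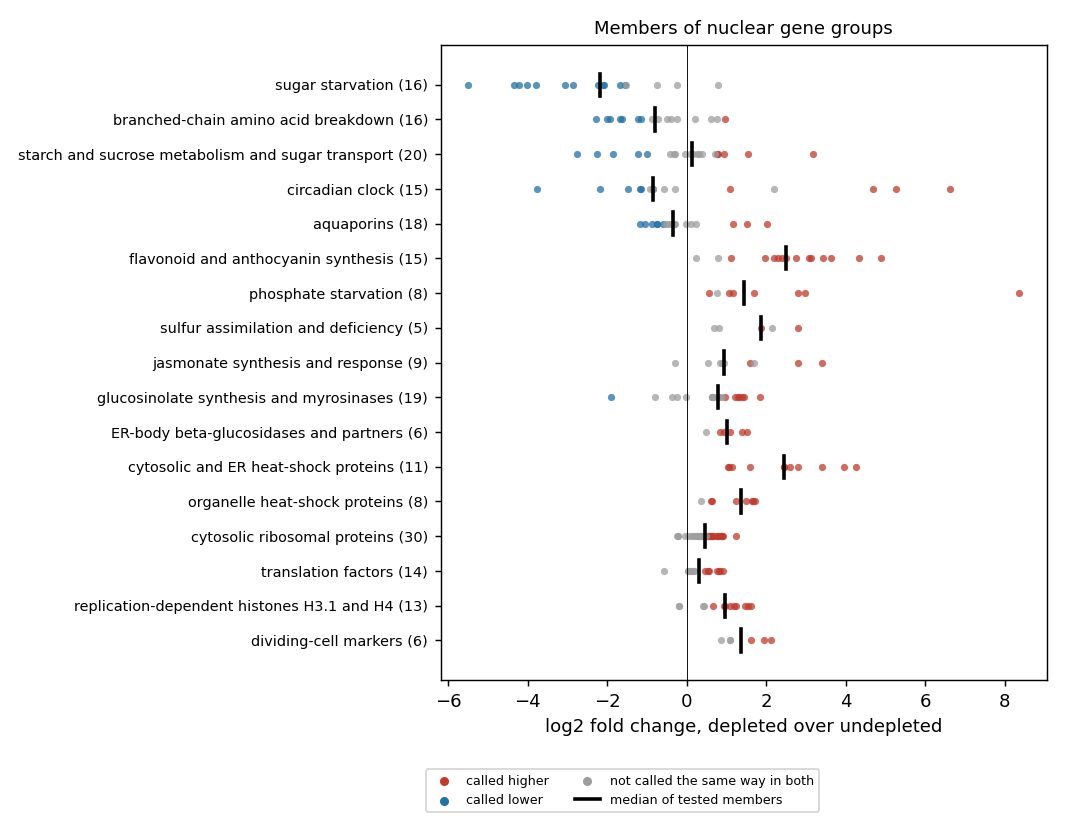
Log2 fold change, depleted over undepleted, of the tested members of 17 nuclear gene groups, with their number in parentheses, 1 point per gene and a black bar at the median. Red and blue points are called the same way in V1 and V2. Sugar-starvation genes lie lowest (median -2.17) and flavonoid and cytosolic heat-shock genes highest (2.51 and 2.44); the point of PS2 at 8.35 is a fitted value for a gene without undepleted counts and is not a bound.

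In chloroplast complexes, most plastid-encoded subunits were higher in V1 and V2 and few nuclear-encoded ones were. Photosystems, the cytochrome b6f complex, ATP synthase, the NDH complex and the plastid ribosome each combine proteins from chloroplast genes with proteins imported from the cytosol. Chloroplast genes took 21.8% and 23.7% of counts over CDS in V1 and V2 against 15.2%, 14.9% and 13.6%, a ratio of means of 1.56 (exact permutation test, 2-sided, p = 0.1, the smallest that 2 against 3 libraries allow). The undepleted 8-day libraries were at 21.5%, 20.8% and 20.5%, near V1. The plastid NDH list lay 2.01 (V1) and 2.13 (V2) above the 14-day undepleted libraries in the median log2 ratio, but 0.13 and 0.33 above the 8-day ones. Plastid-encoded ribosomal proteins lay 1.27 and 1.22 above the former and 0.02 and -0.21 from the latter. All tested plastid-encoded subunits were higher for photosystem I (7 of 7), cytochrome b6f (6 of 6), ATP synthase (6 of 6) and NDH (12 of 12), and 13 of 15 were for photosystem II. The medians were 1.08, 1.41, 0.84, 2.07 and 1.32. Of 30 nuclear-encoded photosystem and electron-transport subunits 1 was higher and 2 lower (median 0.01), and of 9 nuclear NDH subunits 1 and 1 (0.05). Plastid-encoded ribosomal proteins were higher in 24 of 25 genes (1.24), whereas of 28 nuclear-encoded ones 0 were higher and 1 lower (-0.06). The nuclear counts moved with the library and the scaling: of the 30 photosystem and electron-transport subunits, 8 were lower with scaling to the library total, 13 higher and 4 lower with V2 alone, and 2 higher and 11 lower with V1 alone. Of the 28 nuclear-encoded ribosomal proteins 9 were lower with V2 alone, and 4 higher and 2 lower with V1 alone. The difference between the encoding genomes was not tested.

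Single subunits show the range. The photosystem II antenna protein psbB was at 13462 and 20150.3 CPM in V1 and V2 against 5149.9, 5084 and 5372 CPM (1.69 ± 0.20, adjusted p = 0.0016, edgeR), and psbC, its sister, at 15603 and 28088 against 10447 to 11144 CPM. The photosystem I core genes psaA and psaB both had a log2 fold change of 1.08, with 11054 and 16690.4 CPM for psaA against 6344 to 6718 CPM. The reaction-centre gene psbA, the best covered of photosystem II, did not follow: it was at 31976 CPM in V1 and 60349 in V2 against 49797, 48919 and 46738 CPM, below the undepleted range in V1 and above it in V2. Genes of assembly and protein turnover were higher too, with ycf4, a photosystem I assembly factor, at 351 and 463 against 98.8 to 113 CPM and the protease subunit clpP at 409 and 446 against 89.0 to 114 CPM. petA (cytochrome f), atpA (ATP synthase) and ndhK (NDH) had log2 fold changes of 1.48 ± 0.14, 1.35 ± 0.16 and 2.17 ± 0.20. Without 1 undepleted library, 2 to 3 of 7 photosystem I, 8 of 15 photosystem II, 4 to 5 of 6 cytochrome b6f, 2 to 3 of 6 ATP synthase, 10 to 11 of 12 NDH and 15 to 18 of 25 ribosomal protein genes stayed called, with psbC, psaA and psaB lost each time. With scaling to the library total 5 of the photosystem I, 11 of the photosystem II and 11 of the NDH genes stayed.

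Among nuclear partners, NdhO (AT1G74880) was at 71.4 and 68.3 CPM against 128, 127 and 159.8 CPM, whereas PnsB1 (AT1G15980) of the same complex was at 157 and 249.8 against 100.3 to 125 CPM. The plastid ribosomal protein gene AT5G24490 fell from 302 to 331 CPM to 189 and 126 CPM. PSBO1 (AT5G66570), of the water-splitting complex, and PRPS1 (AT5G30510), of the plastid small subunit, were not called (log2 fold changes -0.32 ± 0.18 and 0.16 ± 0.14). LHCB3 (AT5G54270), an outer antenna protein, was higher at 2660.0 and 6327 CPM against 1981 to 2315 CPM. Of 21 light-harvesting genes 2 were called, and for 11 V1 and V2 lay on opposite sides of the undepleted range, with list medians of -0.28 in V1 and 0.69 in V2. ELIP2 (AT4G14690), a light-stress relative of these antenna proteins, rose in both, at 128 and 180.4 CPM against 12.1, 11.7 and 15.8 CPM. In carbon and nitrogen metabolism, CP12-1 (AT2G47400), a linker of Calvin-Benson enzymes, fell by 1.13 on the log2 scale, GLU1 (AT5G04140), ferredoxin-dependent glutamate synthase, rose by 1.08, and nitrate reductase NIA2 (AT1G37130) was at 1909 and 526 CPM against 3882 to 4148 CPM. Nitrite reductase NIR1 (AT2G15620) was at 437 and 308 against 186 to 206 CPM, opposite to NIA2, and both calls were lost without any 1 undepleted library.

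**Figure D4:**
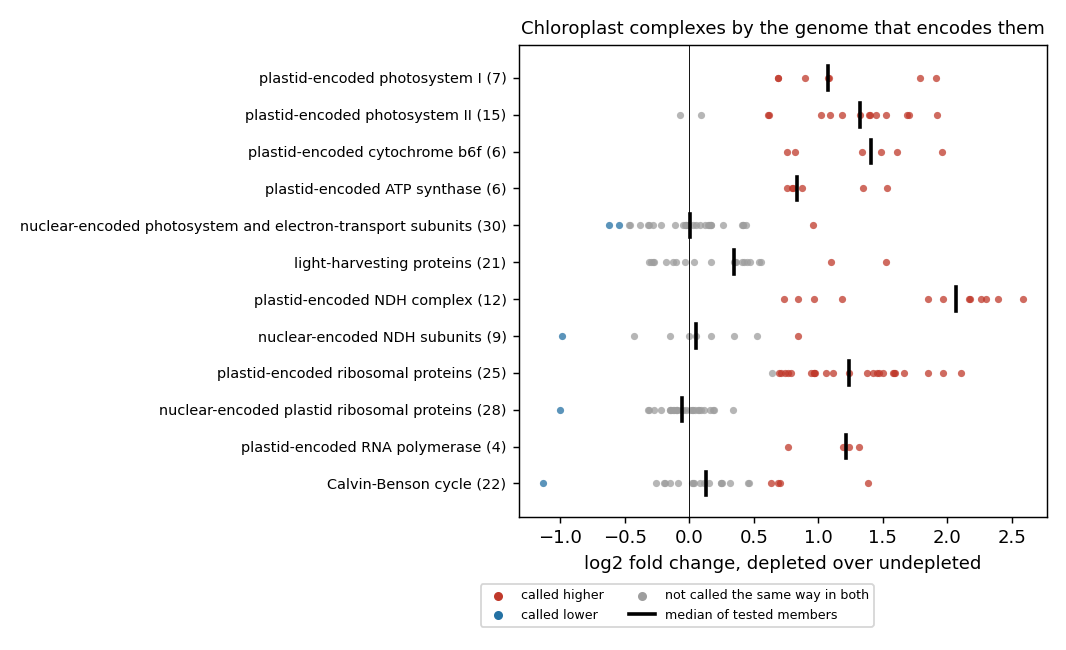
Log2 fold change, depleted over undepleted, of tested genes for chloroplast complexes, grouped by the encoding genome, 1 point per gene with a black bar at the median. Plastid-encoded groups have medians from 0.84 to 2.07, and nuclear-encoded groups from -0.06 to 0.34.

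Aquaporins, the water channels of plasma membrane and vacuole, were higher in 3 and lower in 6 of 18 genes, beside 10.9% higher and 11.7% lower over all genes tested. The plasma-membrane channel PIP1;3 (AT1G01620) was at 389 and 341 CPM against 755, 747 and 986 CPM, and the vacuolar TIP2;1 (AT3G16240) at 1029 and 1226 against 1907 to 2326 CPM. Another vacuolar channel, TIP1;1 (AT2G36830), was higher at 328 and 523 CPM against 168 to 209.6 CPM. With 1 undepleted library left out, 2 lower calls remained each time, PIP1;3 and PIP1;5 (AT4G23400), and 0 to 1 of the higher ones.

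Further genes of the largest increases belonged to no list. KAT5 (AT5G48880), a peroxisomal thiolase of fatty acid breakdown, was at 24.2 and 127 CPM in V1 and V2 against 3.39, 3.24 and 2.08 CPM. KAT5 lay below the count minimum of the filter in every undepleted library. It passed only through V1 and V2, where it was high. XTH31 (AT3G44990), a cell-wall xyloglucan enzyme, was at 65.9 and 156 CPM against 2.98 to 5.28 CPM, and AT2G27420, annotated as a cysteine proteinase, at 81.0 and 157 against 4.52 to 6.85 CPM. AT5G64170, annotated as similar to a dentin protein, was at 38.5 and 88.9 against 3.87 to 6.87 CPM, and AT1G73600, a methyltransferase family gene, at 121 and 354 against 21.1 to 27.1 CPM. These 5 were called in each fit without 1 undepleted library. MS2 (AT3G03780), methionine synthase, was at 258 CPM in V1 and 2773 in V2 against 78.4, 73.6 and 86.6 CPM, and the plastid lipid-body protein FIB (AT4G04020) at 43.5 and 421 against 17.7 to 20.6 CPM. UGT74E2 (AT1G05680), which glycosylates an auxin precursor, was the reverse, at 61.7 CPM in V1 and 14.2 in V2 against 2.08 to 5.66 CPM. In the 8-day undepleted libraries MS2 was at 246 ± 25.4 CPM and UGT74E2 at 68.4 ± 3.18 CPM (SD, n = 3, common scale), near V1 and far from V2.

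For 1498 genes the depleted libraries disagreed, with V1 above the undepleted range and V2 below it for 634 and the reverse for 864. The 8 widest gaps are given as values. HB1 (AT2G16060), the hypoxia-induced hemoglobin, was at 67.5 CPM in V1 and 0.697 in V2 against 7.16, 4.45 and 3.27 CPM. The fermentation enzymes ADH1 (AT1G77120) and PDC1 (AT4G33070) were at 61.6 and 47.1 CPM in V1 and at 3.25 and 0.929 CPM in V2. Their undepleted levels were 3.57 to 4.15 and 2.08 to 6.79 CPM. SBT4.12 (AT5G59090, a subtilase), DTX1 (AT2G04040, a transporter of the MATE family) and AT3G54580 were at 31.97, 37.2 and 32.4 CPM in V1 and at 1.63, 2.09 and 1.86 CPM in V2. Opposite to these 6, FBA5 (AT4G26530), a cytosolic aldolase, was at 20.8 CPM in V1 and 709 in V2 against 171, 178 and 229 CPM. COR413-PM1 (AT2G15970), a cold-regulated membrane protein, was at 8.44 and 283 CPM against 86.1 to 92.4 CPM. All 8 were near V1 in the 8-day undepleted libraries, for example HB1 at 86.0 ± 9.84 CPM and COR413-PM1 at 10.6 ± 1.402 CPM (SD, n = 3, common scale). ADH1 passed the test (adjusted p = 0.045, edgeR) although V2 lay below the undepleted range, and it was not called without V1.

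**Figure D5:**
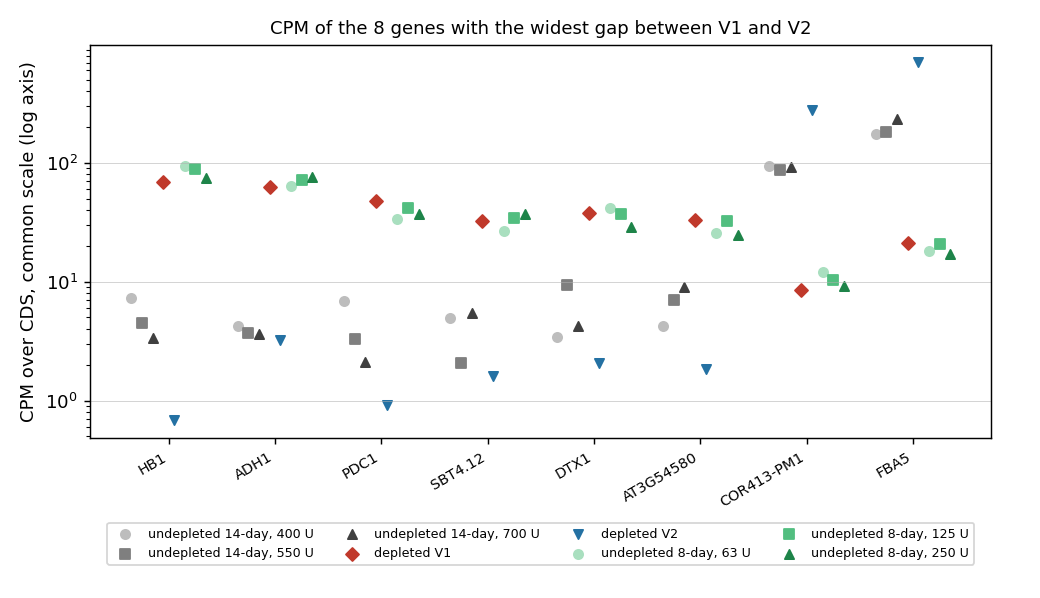
CPM over CDS (log axis, common scale of all Arabidopsis RNase I libraries) of the 8 genes with the widest gap between V1 and V2, 1 point per library. V1 (red) lies beside the 3 undepleted 8-day libraries (green) for each gene, while V2 (blue) lies on the far side of the 14-day undepleted libraries (grey).

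The ligation-free and ligation-based depleted libraries, which were not used to choose or test the genes, carried the same labels of age, light and dose as V1 and V2 but other library preparation. Their levels are given as a description on the common scale, the ligation-free library first. PRR9 was at 78.5 and 67.7 CPM and RVE1 at 33.0 and 24.2 CPM, outside the undepleted 14-day range on the side of V1 and V2. BT2 was at 15.2 and 13.5 CPM, STP1 at 266 and 303 CPM and ASN1 at 143 and 131 CPM, all below the undepleted range and above V1 and V2. PAP17 at 43.4 and 40.6 CPM, AT3G09440 at 525 and 573 CPM and ELIP2 at 147 and 238 CPM lay well above it. CHS at 118 and 144 CPM and psbB at 9430 and 9884 CPM lay between the undepleted libraries and V1 and V2. LOX2 at 30.2 and 32.4 CPM and CPN60A at 509 and 542 CPM were close to the undepleted levels of 15.8 to 27.6 and 459 to 474 CPM. CCA1, lower in V1 and V2, was at 347 and 328 CPM, above the undepleted range.

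Markers of other tissue moved with V1 only. The 10 root markers summed to 100.0 CPM (of the library total) in V1, 34.9 in V2, 38.1 to 43.7 in the 14-day undepleted libraries and 93.8 to 112 in the 8-day ones. All 10 had counts in V1, while 6 had counts in V2 and 8, 8 and 6 in the 400, 550 and 700 U libraries. Of the 3 that were tested, 0 were called. The 9 seed storage and oil-body markers had 34 counts in V1, 0 in V2 and 2 in each undepleted 14-day library, which allowed no test. The part of tissue make-up in the results above was not tested. Sequence features of nuclear genes are given without a test. The median GC content of the CDS was 44.6% for higher, 45.2% for lower and 44.4% for other genes, and median CDS length 1383, 1116 and 1209.5 bases.

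Without V1, V2 alone gave 3003 higher and 3077 lower genes. Without V2, V1 alone gave 2914 and 2961. In these fits the lone depleted library is assumed to vary like the undepleted ones. V2 alone called 13 of 16 sugar-starvation genes lower, 7 of 9 flavonoid and 9 of 9 cytosolic heat-shock genes higher and 12 of 12 plastid NDH genes higher, each among the members still tested. For light-harvesting genes V2 alone called 14 higher and 0 lower, and V1 alone 2 higher and 11 lower. For clock genes the counts were 2 higher and 8 lower with V2 alone and 1 higher and 8 lower with V1 alone, of 12 still tested, and for aquaporins 3 and 9, and 2 and 12, of 17.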

How the data were processed

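Ribosome-protected fragments of 5 Arabidopsis libraries were compared. Per the study's methods, the authors trimmed adapters and molecular identifiers with cutadapt, discarded reads matching rRNA, tRNA or snoRNA in STAR, mapped what was left to TAIR10 (STAR), keeping 1 alignment per read, and counted them over CDS by strand with featureCounts (Ensembl Plants annotation 45), multi-mapped reads included. Of these tools no version is stated. The deposited values used are these counts per gene and the authors' counts of reads by compartment. Near-identical genes share reads, so that their split is uncertain.

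Counts were tested with edgeR 4.0.16 in R 4.3.3 (TMM, quasi-likelihood, 2 depleted against 3 undepleted libraries, Benjamini-Hochberg over 15532 genes that reached 10 counts in 2 or more libraries), with an adjusted p under 0.05 as the threshold. CPM are TMM-normalized. Values set beside 8-day or ligation-based libraries use 1 TMM scale over 11 libraries, a comparison chosen after seeing the data and given without a test. Alternatives were edgeR's RLE and library-total scaling, TMM on nuclear genes, DESeq2 1.42.0, 2 other filters, the repeat 700 U library and each library left out. Intervals and floors cover counting error only.

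Nuclear names (27420 of 27420 IDs) and CDS sequences came from RefSeq on TAIR10, of which 27416 CDS 5′ exon ends matched the counted annotation, and 84 chloroplast genes were named by position. Oligo sequences came from the study's oligo list. The members and gene lists were chosen with earlier results of these data known. Named genes are members of a list among the 6 with the largest called change or the 3 with the highest level, the 15 strongest in each direction over all genes (mean of at least 50 counts), the 8 with the widest gap between V1 and V2 (same minimum), and genes with an oligo match of at least 18 bases. BGLU24, MEX1, CYP79B2 and the RPS2 copies were singled out later, from their values. The deposited tobacco tables were not used.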

Additional observations from a re-analysis of the deposited data

How the results depend on the processing

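The genes called higher (1693) and lower (1813) numbered 930 higher with scaling to the library total, 2546 higher without a filter on low counts, and 967 and 1187 with a fold of at least 2. Leaving out 1 library gave 451 to 3003 higher and 669 to 3077 lower, lowest without an undepleted library. For genes called the same way in both depleted libraries these were 930 with scaling to the library total, 965 and 1187 with a fold of at least 2, and 451 to 3003 higher and 669 to 3075 lower with 1 library left out. List members called higher (205 with the settings of the report, and 51 lower) numbered 121 with TMM on nuclear genes, which leaves out the chloroplast genes, and 134 with a fold of at least 2, and ranged from 98 to 277 with 1 library left out, while those called lower ranged from 29 to 126. Oligo matches rose from 3 to 12 genes with runs of 15 bases. Of 104 named genes tested in the fit, 97 were called, and 60 of these were called in each of the 3 fits without 1 undepleted library. A change of sign occurred for GSTT2 (0.078 with the repeat 700 U library), psbA (0.30 without V1, -0.57 without V2, called each time) and PRPS1 (-0.021 with scaling to the library total), none of which was called with all libraries. DESeq2 called 1296 genes higher and 1550 lower, and RLE scaling 1662 and 1832. The cause of these changes was not tested. No paired analysis was possible because the replicate numbers only name the doses and the oligo cocktails and tie no depleted library to an undepleted one. With 2 against 3 libraries the spread rests on few samples, and low genes such as GI, MYB75 and PS2 are limited by 0 or 1 undepleted counts.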
